A study of Mus musculus with 4 samples.

Results

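Oxidative phosphorylation (OXPHOS) is carried out by 5 protein complexes of the inner mitochondrial membrane, and most of their subunits are encoded by nuclear genes. The nuclear-encoded subunits were followed here in CD24+ emergency progenitors (EPs) of the mouse spleen, the cells from which dendritic cells (DCs) expand after injection of Flt3L. Members were taken by gene symbol: the Nduf subunit series of complex I, Sdha to Sdhd of complex II, the Uqcr genes and Cyc1 of complex III, the Cox4 to Cox8 series of complex IV without Cox6a2, and the Atp5 genes of complex V. Pseudogenes and assembly factors were left out, and so were Ndufab1 and Atpif1, whose symbols do not follow these series. This gave 90 of the 40213 gene symbols in the files, of which 41 belonged to complex I, 4 to complex II, 9 to complex III, 19 to complex IV and 17 to complex V. Ndufa4 and its paralogue Ndufa4l2 were counted with complex IV, where the Ndufa4 protein sits despite its name.

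Complexes I and II pass electrons from NADH and succinate to ubiquinone, complex III passes them on to cytochrome c, and complex IV to oxygen. Complexes I, III and IV pump protons meanwhile, and complex V, the ATP synthase, lets protons flow back to make ATP. Complex II is built from nuclear-encoded subunits alone, whereas the other complexes also need subunits encoded by mitochondrial DNA (mtDNA), so their assembly draws on 2 genomes. DCs and their progenitors are known to use this pathway while they differentiate, and to lean on glycolysis more once activated.

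The data were bulk RNA-seq counts from 2 WT libraries and 2 libraries labelled TopBP1 cKO. WT denotes young adult TopBP1 fl/fl littermates, so the controls carried the floxed alleles too, and TopBP1 cKO denotes TopBP1 fl/fl mice with CD11c-cre, in which deletion depends on the activity of the CD11c promoter in each cell. All mice received 10 µg of Flt3L-Ig intraperitoneally on day 0 and again on day 3, and the sort of EPs followed on day 9. The labels do not say whether a library came from 1 mouse or from a pool, so each P value measures the spread between these libraries, which may be technical in part.

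The libraries held 14561583 to 15193831 counts. Topbp1 itself had 1102 and 1143 counts in the WT libraries, 773 in cKO-labelled replicate 1 and 1279 in cKO-labelled replicate 2, so replicate 2 goes against its label by this measure and the groups are called WT and cKO-labelled. These counts cover the whole gene, and reads from outside the deleted part cannot be told apart from the rest, so they may not show the deletion. The sorted cells expressed Itgax (CD11c; 614 to 690 CPM, counts scaled to a common library size) and Kit (383 to 481 CPM) in all 4 libraries. Xcr1, a marker of the conventional DC subset cDC1 in the paper, was at 734 and 753 CPM in WT. In the cKO-labelled libraries it was at 626 and 701 CPM, and the part of XCR1+ cells in the sort was not tested. Kit, Cd24a, Flt3 and Xcr1 were below both WT libraries in both cKO-labelled libraries, and Itgax was above. Kit had a log2 fold change of −0.30 (edgeR quasi-likelihood test, unadjusted P 0.036, false discovery rate 0.436). The cKO-labelled replicate 2 stood apart: its summed level of 20 cell cycle genes was 2627 CPM, against 747 and 782 CPM in WT and 990 CPM in replicate 1. Summed neutrophil markers (13 genes) were at 821 and 902 CPM in WT and at 2343 and 2271 CPM in the cKO-labelled libraries, where T cell markers (5 genes) reached 16.0 CPM at most, B cell markers (8 genes) 86.7 CPM and erythroid markers (8 genes) 18.6 CPM. In WT these lists were at 10.1 to 10.7, 68.7 to 76.0 and 13.4 to 16.3 CPM, while markers of macrophages (8 genes) were at 185 and 201 CPM in WT and at 177 and 151 CPM in the cKO-labelled libraries. Markers of plasmacytoid DCs, 7 genes without Cox6a2, were at 201.7 and 207.7 CPM in WT and at 170 and 165 CPM in the cKO-labelled libraries. No marker of these lists was at 0 in all libraries. The part of these cell types and of proliferation in the values that follow was not tested.

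The nuclear OXPHOS subunits as a group stayed close to their WT level in the cKO-labelled libraries. They took 0.644% and 0.672% of all counts in the WT libraries, 0.710% in cKO-labelled replicate 1 and 0.648% in replicate 2. The groups overlapped, since replicate 2 lay between the WT libraries. In bulk RNA, fewer cells of a type and less RNA per cell cannot be told apart.

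Of the 90 members, 81 had enough counts to be tested and 9 did not. None of the 81 was called at a false discovery rate (FDR) below 0.05 by the quasi-likelihood test of edgeR, where 0.105% of the 12393 genes tested were called, 0.0807% higher in the cKO-labelled libraries and 0.0242% lower. The lowest FDR of a member was 0.346. At an unadjusted P below 0.05 stood 1 member, Atp5g1, or 1.23% of those tested, where 10.7% of all genes tested did, 6.95% higher and 3.77% lower. DESeq2 and limma-voom called 0 members as well. These counts leave out Cox6a2, the isoform of a complex IV subunit best known from heart and skeletal muscle, which the choice of members excluded: it had 0 and 3 counts in WT and 183 and 168 in the cKO-labelled libraries (FDR 0.00762). Cox6a2 also stands in the list of plasmacytoid DC markers, where it was the 1 gene called. Of the 6 other markers tested there, none was higher at an unadjusted P below 0.05, and Tcf4 (log2 fold change −0.33, FDR 0.389) and Bst2 (−0.29, FDR 0.463) were lower at that P.

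The log2 fold changes, cKO-labelled libraries over WT, were small and narrowly spread. Their median was 0.04 (−0.01 without cKO-labelled replicate 1 and 0.09 without replicate 2) and the middle 50% of members spanned 0.147, against a median of 0.01 and a span of 0.353 for all genes tested. They ran from −0.44 for Cox7a2l to 0.47 for Atp5g1, with 52 members above 0 and 29 below. The span of the middle 50% was similar in some other sets. It was 0.122 for genes of cytosolic ribosomal proteins and 0.169 for those of mtDNA replication and expression, but 0.333 for assembly factors. The members were also more abundant than most genes, with a median of 886.5 counts per library against 359, and were measured more precisely, with a median SE of 0.14 against 0.18. The 95% interval lay within −1 and 1 for 79 of the 81 members (97.5%; 73.4% of all genes tested) and within −0.5 and 0.5 for 61 (75.3%; 33.7%). The members whose interval left −1 to 1 were Cox7a2l and Ndufb4b, a paralogue of a complex I accessory subunit with only 21, 0, 3 and 19 counts, named because of that interval.

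**Figure D1:**
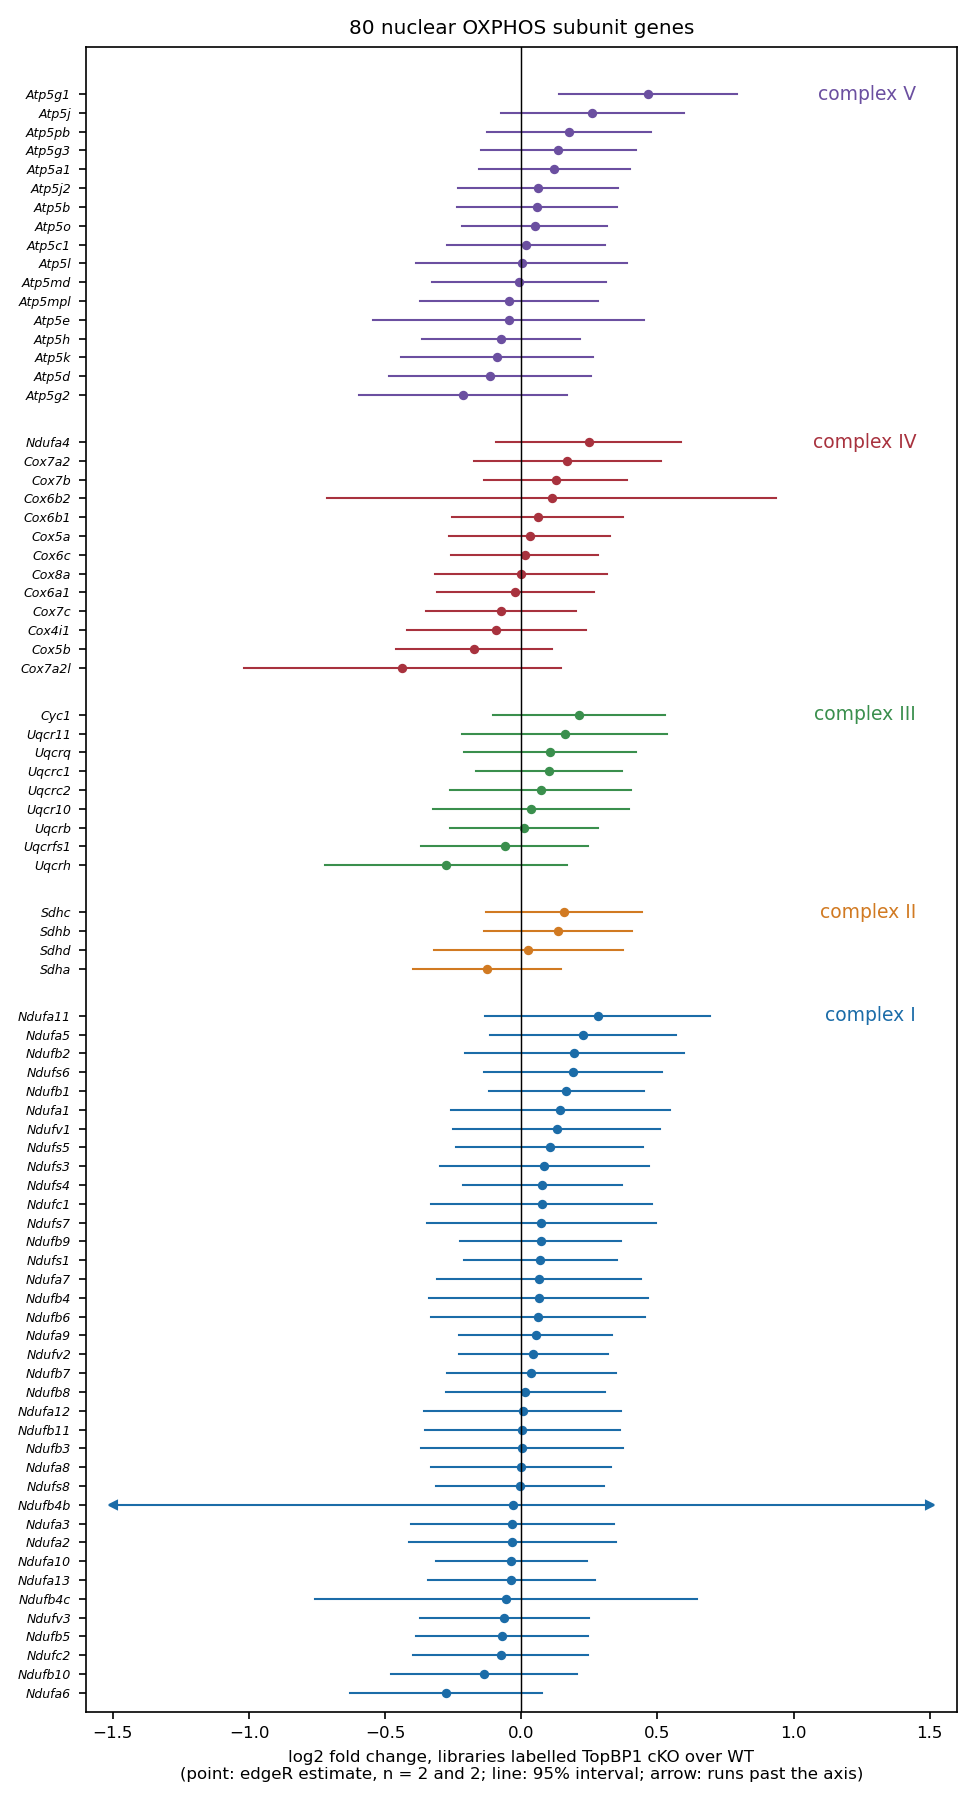
Log2 fold change (x axis) of 80 of the 81 members tested, by complex, cKO-labelled libraries over WT (n = 2 and 2); points are edgeR estimates and lines 95% intervals. Of the 80 intervals drawn, only that of Atp5g1 leaves out 0 (log2 fold change 0.47), and those of Cox7a2l and Ndufb4b reach past −1.

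The groups did not overlap for 27 members (33.3%), where 43.6% of all genes tested had groups that did not overlap. Both cKO-labelled libraries were above both WT libraries for 21 members (25.9%; 22.8% of all genes tested) and below both for 6 (7.41%; 20.8%). The medians by complex were 0.05 for complex I, 0.08 for complex II, 0.07 for complex III, 0.01 for complex IV and 0.02 for complex V. With SDs of the library medians of 0.04 to 0.08, none of the 5 complexes stood apart from the others beyond the spread between libraries.

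In complex I, the 6 core subunits described here had log2 fold changes of 0.13 or less, and none passed the test. Ndufv1, which holds the flavin that takes electrons from NADH, had 565 and 654 counts in WT and 788 and 608 in the cKO-labelled libraries (log2 fold change 0.13, SE 0.16, FDR 0.816). Its groups overlapped. The iron–sulfur subunits Ndufv2, Ndufs1, Ndufs7 and Ndufs8, which relay the electrons, had log2 fold changes of 0.04, 0.07, 0.07 and 0.00, with FDRs of 0.878 and above. Ndufs3, another core subunit of the arm that reaches into the matrix, had 0.08.

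The accessory subunits of complex I, which surround this core, held its extremes. Ndufa6 had 1697 and 1734 counts in WT, 1677 in cKO-labelled replicate 1 and 1293 in replicate 2, at a log2 fold change of −0.28 (SE 0.15, FDR 0.567). Replicate 2 held the lower value, at 0.760 of the replicate 1 level. Ndufa11, a subunit in the membrane arm, had 235 and 319 counts in WT and 359 and 344 in the cKO-labelled libraries, at a log2 fold change of 0.28 (SE 0.18, FDR 0.615). Its groups did not overlap, but the WT libraries differed from each other by more than the nearer WT library did from either cKO-labelled library.

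Complex II, succinate dehydrogenase, also works in the tricarboxylic acid (TCA) cycle. Its catalytic subunit Sdha, which binds the flavin, had 3324 and 3734 counts in WT and 3516 and 3265 in the cKO-labelled libraries, at a log2 fold change of −0.12 (SE 0.12, FDR 0.740). On the CPM scale its groups did not overlap, whereas the raw counts overlapped. Sdhb, the iron–sulfur subunit, had 963 and 1022 counts in WT and 1130 and 1156 in the cKO-labelled libraries (log2 fold change 0.13, FDR 0.721). Sdhd, a membrane anchor, had a log2 fold change of 0.03.

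In complex III, cytochrome c1 (Cyc1), which hands electrons to cytochrome c, had 444 and 518 counts in WT and 588 and 579 in the cKO-labelled libraries, which did not overlap (log2 fold change 0.21, SE 0.14, FDR 0.618). The Rieske iron–sulfur protein Uqcrfs1 and the core proteins Uqcrc1 and Uqcrc2 had log2 fold changes of −0.06, 0.10 and 0.07. Uqcrh, the hinge protein beside cytochrome c1, was the exception in size. It had 2152 and 2606 counts in WT, 2450 in cKO-labelled replicate 1 and 1655 in replicate 2, at a log2 fold change of −0.28 (SE 0.19, FDR 0.648). Replicate 1 lay between the WT libraries and replicate 2 below both.

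The largest difference of any member in size below 0 was that of Cox7a2l in complex IV. Cox7a2l is a paralogue of the complex IV subunit Cox7a2. Its protein has been described as linking complexes III and IV into supercomplexes, which were not examined here. It had 4504 and 4859 counts in WT, 4666 in cKO-labelled replicate 1 and 2571 in replicate 2, or 318, 321, 306 and 166 CPM. Replicate 1 was thus just below the WT libraries and replicate 2 at 0.543 of replicate 1. The log2 fold change was −0.44 with an SE of 0.25, the interval ran from −1.02 to 0.14, and the FDR was 0.585.

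The other subunits of complex IV had smaller differences. Cox4i1, the regulatory subunit that binds nucleotides, had 3719 and 3419 counts in WT and 3814 and 3226 in the cKO-labelled libraries (log2 fold change −0.09, FDR 0.857). Cox5b, a zinc-binding subunit on the matrix side, had −0.17, Cox6b1 0.06, Cox7a2 0.17, Cox7b 0.13 and Cox8a 0.00. Ndufa4 had 486 and 630 counts in WT and 691 and 694 in the cKO-labelled libraries, at a log2 fold change of 0.25 (SE 0.15, FDR 0.593).

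Several complex IV subunits have isoforms tied to tissues, and among the members most counts fell on the widespread ones. Cox4i2, the isoform known from lung and from low oxygen, had 3, 0, 2 and 0 counts, at most 0.0806% of the Cox4 counts of a library. Cox7a1, known from heart and muscle, had 0, 2, 3 and 5 counts, and the muscle isoform Cox8b, the testis isoforms Cox7b2 and Cox8c and the hypoxia-linked Ndufa4l2 had none in any library. A count of 0 allows up to 3 counts, or 0.197 to 0.206 CPM, and covers counting error only. Among the members, the tissue isoform with the most counts was Cox6b2, known from testis, with 32, 46, 49 and 39 counts, or 3.60% to 4.34% of the Cox6b counts (95% Wilson intervals of at most ±1.24 percentage points). Its share did not separate the groups. Cox6a2, outside the members, took 0% and 0.202% of the Cox6a counts in WT but 10.76% and 10.99% in the cKO-labelled libraries (95% Wilson intervals of at most ±1.57 percentage points), whereas its widespread partner Cox6a1 had 1304 and 1485 counts in WT and 1518 and 1360 in the cKO-labelled libraries (log2 fold change −0.02, FDR 0.969). The remaining members left untested were the complex I paralogues Ndufb11b (0 counts), Ndufa11b (1 count in all) and Ndufs6b (6, 0, 2 and 2 counts).

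In complex V, the catalytic head was the most counted of all. Atp5b, the beta subunit that makes ATP, had 8945 and 9222 counts in WT and 10243 and 9613 in the cKO-labelled libraries (log2 fold change 0.06, SE 0.13, FDR 0.906). Atp5a1, the alpha subunit beside it, had 5675, 5750, 6632 and 6412 counts (log2 fold change 0.12, FDR 0.754), and Atp5c1, the gamma subunit of the central stalk, had a log2 fold change of 0.02. The head contains as many alpha as beta subunits, whereas the level per kilobase of transcript of Atp5b was 1.93 to 2.07 times that of Atp5a1 in the 4 libraries. Atp5h, a peripheral stalk subunit, had −0.08, and Atp5j, the coupling factor of the stalk, had 940, 906, 1037 and 1289 counts (log2 fold change 0.26, SE 0.14, FDR 0.570), with both cKO-labelled libraries above WT.

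Subunit c forms the ring in the membrane that turns as protons pass. It is encoded by 3 genes, Atp5g1, Atp5g2 and Atp5g3, whose different leader peptides are cut off to leave the same mature protein. Counts were taken over whole transcripts, which hold more than the part that codes for the mature protein. Reads from within that shared part can be told apart only by differences in bases. The sequences below are the first 120 of the 225 coding bases that make up the mature part. They come from GENCODE vM21 (GRCm38), from Atp5g1 at chr11:96068852-96075670, Atp5g2 at chr15:102662864-102672352 and Atp5g3 at chr2:73908447-73911326, all exonic and on the minus strand. Capitals mark bases at which the 3 genes are not all alike.
Atp5g1: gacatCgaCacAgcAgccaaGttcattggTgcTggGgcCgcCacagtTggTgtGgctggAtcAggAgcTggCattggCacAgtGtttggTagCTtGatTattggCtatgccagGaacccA
Atp5g2: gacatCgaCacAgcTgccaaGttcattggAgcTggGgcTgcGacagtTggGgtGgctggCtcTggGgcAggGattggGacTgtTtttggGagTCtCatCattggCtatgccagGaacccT
Atp5g3: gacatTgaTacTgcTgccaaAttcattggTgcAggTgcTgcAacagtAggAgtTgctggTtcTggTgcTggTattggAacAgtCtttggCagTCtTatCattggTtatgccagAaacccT
Over the 225 bases, Atp5g1 and Atp5g2 differed at 34, Atp5g1 and Atp5g3 at 45 and Atp5g2 and Atp5g3 at 48, and no identical run was longer than 20 bases.

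Atp5g1 was the member with the smallest P value. It had 436 and 478 counts in WT and 703 and 620 in the cKO-labelled libraries, or 31.2 ± 0.577 CPM against 43.1 ± 4.28 CPM (SD, n = 2 each). In each cKO-labelled library it exceeded its level in either WT library. Its log2 fold change was 0.47 with an SE of 0.14, and by the quasi-likelihood test of edgeR it did not pass across all genes (unadjusted P of 0.011, FDR 0.346). On the most abundant transcript of each gene, Atp5g1 did not reach an unadjusted P below 0.05 either. Atp5g2, the most counted of the family, had 1910 and 2266 counts in WT, 2161 in cKO-labelled replicate 1 and 1600 in replicate 2 (log2 fold change −0.22, SE 0.16, FDR 0.682). Atp5g3 had 1176, 1416, 1452 and 1528 counts (log2 fold change 0.13, SE 0.12, FDR 0.731).

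Summed over the 3 genes, subunit c counts did not separate the groups, at 249 and 275 CPM in WT and 283 and 242 CPM in the cKO-labelled libraries. The shares that follow are of these counts and not of mRNA molecules, because the transcripts differ in length. The lengths used were 3033 bases for Atp5g1, 731 for Atp5g2 and 718 for Atp5g3. Atp5g1 made up 12.4% and 11.5% of these counts in WT (95% Wilson intervals 11.3% to 13.5% and 10.6% to 12.5%). It made up 16.3% and 16.5% in the cKO-labelled libraries (15.2% to 17.4% and 15.4% to 17.8%). The share of Atp5g2 was 54.2% and 54.5% in WT, 50.1% in replicate 1 and 42.7% in replicate 2. The share of Atp5g3 was 33.4%, 34.0% and 33.6% in the first 3 of these libraries and 40.8% in replicate 2. Thus the Atp5g1 share differed between the groups in both libraries, whereas most of the difference for Atp5g2 and Atp5g3 lay in replicate 2. No P value is given for these shares, since the smallest that exact permutation of 2 and 2 libraries allows is 0.333.

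**Figure D2:**
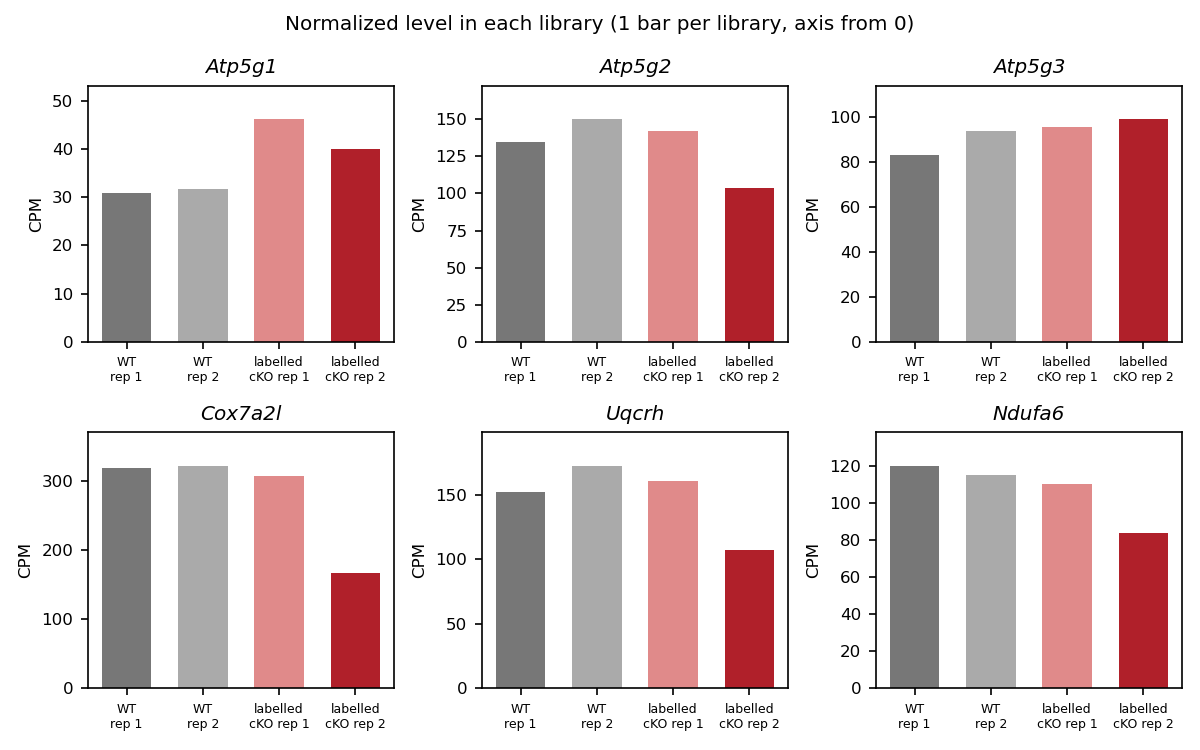
Normalized level (y axis, CPM, from 0) of the subunit c genes and of Cox7a2l, Uqcrh and Ndufa6 in each library, 1 bar per library. Atp5g1 is at 30.8 and 31.6 CPM in WT and at 46.1 and 40.1 CPM in the cKO-labelled libraries, whereas Cox7a2l is at 306 CPM in replicate 1 and at 166 CPM in replicate 2.

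The members were next compared between the cKO-labelled libraries, because replicate 2 stood apart. Each gene was set against its WT mean as log2(CPM + 0.1). The median over the 81 members was 0.10 in replicate 1 and −0.01 in replicate 2, and the WT libraries lay at −0.04 and 0.04. In replicate 1, 64 members were above the WT mean and 17 below, and in replicate 2, 39 were above and 42 below. Within 0.25 of the WT mean stood 69 members (85.2%) in replicate 1 and 67 (82.7%) in replicate 2, where the shares of all genes tested were 69.4% and 48.1%. The members thus spread less than genes at large in the library that differed most from WT. They were also more abundant than most genes and measured more precisely, and the part of this in the narrower spread was not tested.

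Some members differed in replicate 2, in shares near or below those of all genes tested. Replicate 2 was the lowest of the 4 libraries for 29 members (35.8%; 35.0% of all genes tested) and the highest for 12 (14.8%; 34.8%). With replicate 1 left out, so that replicate 2 alone stood for TopBP1 cKO and was assumed to vary like the WT libraries, 5 members were called lower at FDR < 0.05, where 9.6% of all genes tested were, and 1 higher, where 11.6% were. Those called lower were Cox7a2l (−0.94), Uqcrh (−0.60), Ndufa6 (−0.49), Atp5g2 (−0.46) and Atp5e (−0.43), the epsilon subunit of the ATP synthase, and Atp5j was called higher (0.40). Atp5e is named here because of that call, with 1232 and 1501 counts in WT, 1695 in replicate 1 and 1070 in replicate 2. With replicate 2 left out, Atp5g1 alone was called (0.56, FDR 0.0454), where 0.88% of all genes tested were called higher and 0.508% lower. The members called thus changed entirely with the library left out.

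The partners that mtDNA encodes took another course. All 13 genes were tested, with none called at FDR < 0.05 and 1, ND6, at an unadjusted P below 0.05 (7.69%; 10.7% of all genes tested). Their summed level was 20288 and 23826 CPM in WT, 21017 CPM in cKO-labelled replicate 1 and 34149 CPM in replicate 2. Replicate 1 lay between the WT libraries, and replicate 2 was 1.55 times the WT mean. Replicate 2 was the highest library for 12 of the 13, with a median of 0.80 above the WT mean on the log2 scale. The exception was ND6, the complex I subunit transcribed from the other strand of mtDNA, at a log2 fold change of −0.38 (FDR 0.417). The median log2 fold change of the 13 was 0.44, and −0.07 without replicate 2.

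Among the mtDNA-encoded genes, ND1 and ND2 of complex I were at 1.96 and 1.94 times the WT mean in replicate 2. The complex IV subunits COX1, COX2 and COX3, the catalytic core of that complex, were at 1.53, 1.35 and 1.23 times, and CYTB of complex III at 1.73 times. ATP8 and ATP6 of complex V, whose reading frames overlap, were at 1.95 and 1.55 times. The ratio of mtDNA-encoded to nuclear-encoded subunit counts was 3.06 and 3.53 in WT, 2.98 in replicate 1 and 5.40 in replicate 2. The nuclear side of this ratio was steady, at 1.06 and 0.945 times the WT mean in CPM. The mitochondrial rRNAs, Rnr1 and Rnr2 of mtDNA, did not follow the mRNAs: they summed to 13585 and 7305 CPM in WT, 9147 CPM in replicate 1 and 13299 CPM in replicate 2, so the WT libraries spanned the range.

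Genes of cytosolic ribosomal proteins, another set of abundant and short mRNAs for a large complex, were lower in replicate 2. They took 6.36% and 6.58% of counts in WT, 6.62% in replicate 1 and 5.23% in replicate 2. Their median against the WT mean was 0.01 in replicate 1 and −0.37 in replicate 2, where 84 of 87 were below the WT mean. None of the 87 was called at FDR < 0.05 with both replicates, and 1, with a higher level in the cKO-labelled libraries, stood at an unadjusted P below 0.05. The nuclear OXPHOS subunits, at −0.01 in the same library, thus followed neither their mtDNA-encoded partners nor the ribosomal protein genes. The levels of cell cycle genes given above moved with these differences in replicate 2, and their part in them was not tested.

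**Figure D3:**
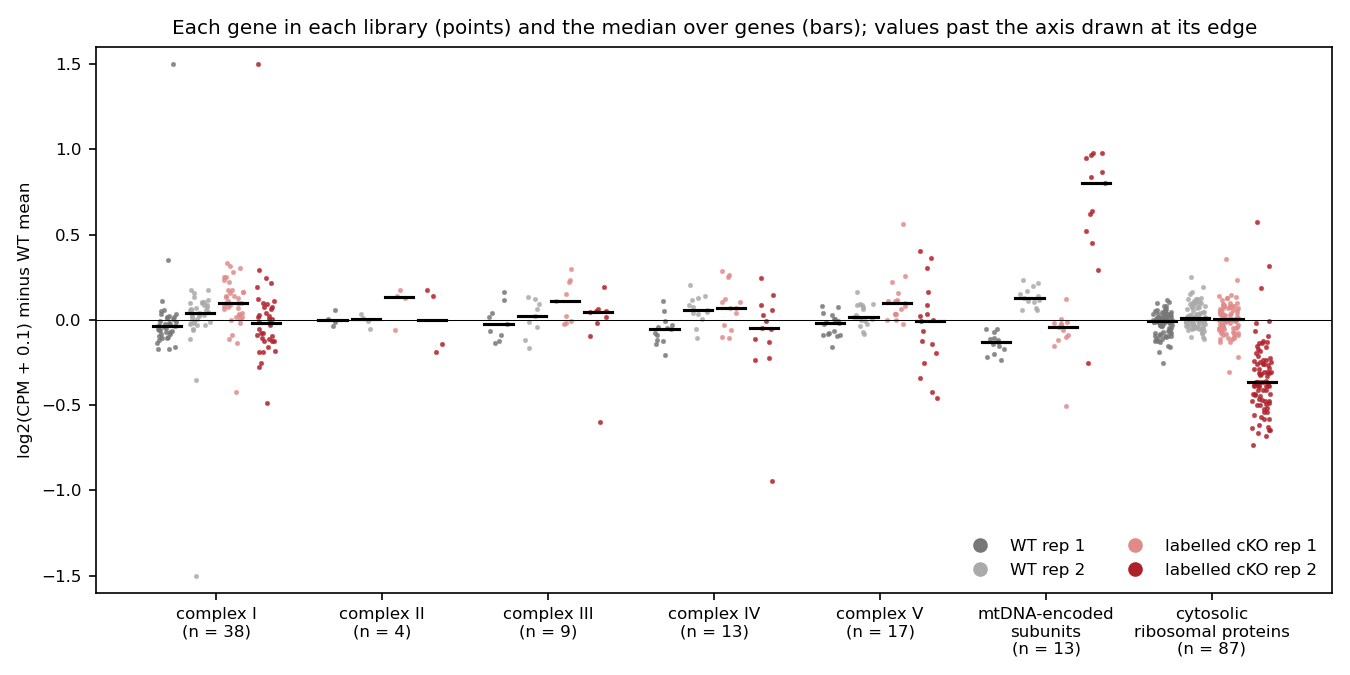
Difference of each gene from its WT mean on the log2(CPM + 0.1) scale (y axis) in each of the 4 libraries, by complex and for mtDNA-encoded subunits and cytosolic ribosomal proteins; points are genes and bars medians. In cKO-labelled replicate 2, the mtDNA-encoded genes have a median of 0.80 and the ribosomal protein genes of −0.37, while the 5 nuclear sets stay near 0 apart from single genes such as Cox7a2l.

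Other genes that the chain depends on were counted in the same test, and none was called at FDR < 0.05, where 0.105% of all genes tested were. At an unadjusted P below 0.05, 6.95% of all genes tested were higher and 3.77% lower. Of 59 assembly factors, which put the complexes together, 2 (3.39%) were higher at that P. They were Tmem126a of complex I assembly (log2 fold change 0.49) and Uqcc2 of complex III assembly (0.35). The median of the 59 was 0.04. Of 19 genes for electron carriers and ubiquinone synthesis, 2 (10.5%) were higher at that P. These included Cycs, cytochrome c itself, with 154 and 151 CPM in WT and 175 and 225 CPM in the cKO-labelled libraries (log2 fold change 0.39, FDR 0.394), and Pdss1, which makes the tail of ubiquinone (1.09). Of 18 genes of the TCA cycle and pyruvate dehydrogenase, only Mdh2 (5.56%) was higher at that P. It had 114 and 115 CPM in WT and 137 and 154 CPM in the cKO-labelled libraries (0.35, FDR 0.365).

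Genes that express or supply mitochondria had medians from 0.01 to 0.19, the highest being that of protein import. The 78 genes of mitochondrial ribosomal proteins, which translate the mtDNA-encoded subunits, had a median of 0.10, with 55 above 0. At an unadjusted P below 0.05 stood 1 of them (1.28%; 10.7% of all genes tested). The 17 genes of mtDNA replication and expression had a median of 0.06 and none at that P. The 23 genes of protein import, through which nuclear-encoded subunits enter, had a median of 0.19. Timm8a1 (0.78) was the 1 gene at that P (4.35%; 10.7% of all genes tested). In 11 of the 23 (47.8%), both cKO-labelled libraries lay above both WT libraries, against 25.9% of the subunits tested and 22.8% of all genes tested. Import was not alone in this. The share was 46.2% for the carriers described next, 42.1% for electron carriers and ubiquinone synthesis and 38.5% for mitochondrial ribosomal proteins. It was 33.3% for the TCA cycle and pyruvate dehydrogenase, 32.2% for assembly factors and 5.88% for mtDNA replication and expression. Outside mitochondria, it was 59.0% for the 39 proteasome subunit genes tested and 2.3% for the 87 cytosolic ribosomal protein genes. A high share was thus not particular to mitochondrial genes. The 13 genes for carriers of the inner membrane and for the Vdac porins of the outer membrane had a median of 0.01. Among them Slc25a20, the acylcarnitine carrier, was the 1 gene at that P (7.69%; 10.7% of all genes tested) and was lower. It was at 49.7 and 45.9 CPM in WT and 38.3 and 23.2 CPM in the cKO-labelled libraries (−0.64, FDR 0.380).

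Of 10 regulators of nuclear OXPHOS genes, 9 were tested and none passed, also at an unadjusted P below 0.05 (10.7% of all genes tested). Nrf1, Gabpa and Yy1, whose products bind many promoters of these genes, had log2 fold changes of 0.14, 0.11 and −0.05, with FDRs of 0.785 and above. Esrra had −0.35 (FDR 0.517). Myc was at 37.6 and 33.1 CPM in WT, 37.5 CPM in replicate 1 and 71.3 CPM in replicate 2, at a log2 fold change of 0.62 (FDR 0.474). Ppargc1a, the coactivator known from muscle, was at 0.453 CPM at most and was not tested.

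The binding letters of these factors were then counted in the members' promoters, taken from RefSeq (GRCm38.p6) as 250 bases before to 50 after each start. Promoters were listed for 70 of the 90 members, 75 in all, and both strands were searched. The NRF1 letters GCGCATGCG stood in 8 of them (10.7%; 1.75% of all 32851 promoters), the ETS letters CCGGAAG of GABPA in 17 (22.7%; 8.86%), and the YY1 letters AAGATGGC in 10 (13.3%; 2.75%). Any of the 3 stood in 30 (40.0%; 12.5%). As an example, the promoter of Uqcrh is shown at chr4:116075072-116075231, on the minus strand, with the ETS letters on the reverse strand in capitals just ahead of the start.
Uqcrh: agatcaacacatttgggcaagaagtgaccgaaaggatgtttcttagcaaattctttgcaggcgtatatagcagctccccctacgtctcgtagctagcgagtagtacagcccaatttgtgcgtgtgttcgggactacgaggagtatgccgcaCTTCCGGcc
Of the 5 members called lower with replicate 1 left out, Uqcrh and Atp5e held the ETS letters and Atp5g2 the NRF1 letters. Cox7a2l and Ndufa6 each had 1 promoter listed, and none of the 3 sets of letters is in these windows. Atp5j, which was higher in the same fit (0.40), had 2 promoters listed. Of these, 1 held the ETS letters and 1 the YY1 letters. A match is a description of the letters and shows no binding.

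Levels per length varied far more between members than between libraries. The mean of the 4 libraries ran from 5.22 CPM per kilobase for Cox6b2 to 349 for Atp5h, with a median of 75.4 over the 78 members tested that had a transcript length. The medians by complex were 52.5 for complex I, 52.6 for complex II, 67.5 for complex III, 137 for complex IV and 129 for complex V. Members at the top were Atp5h, Atp5b (331), Cox4i1 (318), Uqcrh (271) and Cox7a2l (258). Over all members, the library medians were 68.6 and 73.7 CPM per kilobase in WT and 77.3 and 72.1 in the cKO-labelled libraries. The mtDNA-encoded subunits were higher than the nuclear ones by this measure, with a median of 1477 CPM per kilobase.

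**Figure D4:**
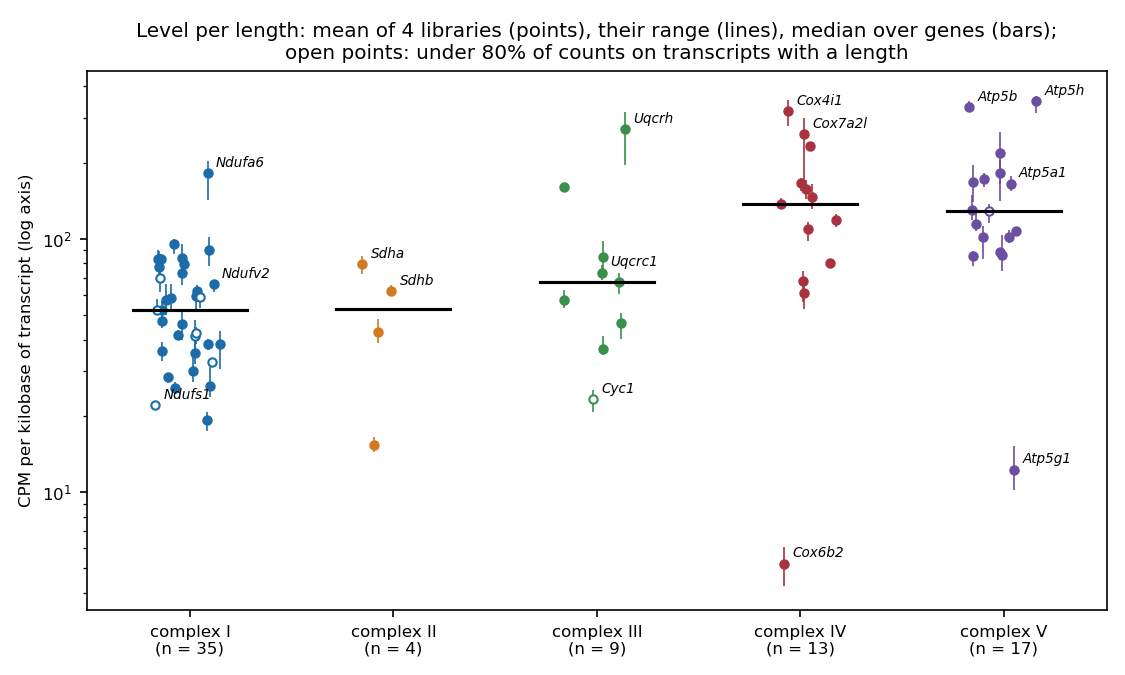
Level per length (y axis, CPM per kilobase of transcript, log axis) of the 78 members tested with a length, by complex; points are means of the 4 libraries, lines their range and bars medians over genes, and open points rest on under 80% of the counts. Complexes IV and V have medians of 137 and 129, against 52.5 to 67.5 for complexes I, II and III.

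Complex II subunits are found in equal copies, whereas Sdha was at 4.43 to 5.82 times the level per length of Sdhc in the 4 libraries. Levels depend on lengths taken from GENCODE vM21, which covered at least 80% of the counts for 69 of the 78 members. The length of Atp5g1 is uncertain, because its counts fell mainly on a transcript matched to one with a long untranslated end, so its low level per length may not be comparable.

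Reads of some members cannot be told from those of near-identical copies. Of the 85 members with a sequence to compare, 16 shared over 20% of their 31-base sequences with another gene, led by Atp5l (69.6%), Uqcrb (54.3%), Ndufs3 (49.3%), Atp5h (46.9%) and Atp5g2 (40.2%). For 14 of the 16, the closest gene was not listed in the files under its symbol. The values of these members are uncertain to that extent. Cox7a2l shared 21.4%, Uqcrh 15.6% and Atp5g1 13.9%. The shared sequences of Atp5g1 were spread over 1716 other genes, so its counts are uncertain to that extent as well.

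The files list 191 transcripts for the members, and 49 members had a single one. Of 129 transcripts with at least 20 counts in a library, 1 had at least 20 in both libraries of a group and 0 in both of the other (0.775%; 2.81% of all transcripts). It was a transcript of Atp5j, with 26 and 56 counts in WT and 0 and 0 in the cKO-labelled libraries. How reads were divided among transcripts of a gene was not given in the sources used here, and the sum over Atp5j was not lower.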

How the data were processed

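RNA of sorted splenic CD24+ EPs was sequenced in 4 libraries. The submitters' processing notes name fastp, STAR, Salmon and GATK with the build GRCm39, without versions or roles. The authors deposited whole-number read counts per RefSeq transcript, not normalized. Whether counting used strand, and the rule for reads that match several transcripts, are not given in the sources used here. Antisense and overlapping genes, such as ND6, are therefore uncertain.

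Counts were summed per gene symbol, filtered with filterByExpr, normalized by TMM and tested with the quasi-likelihood test of edgeR 4.0.16 in R 4.3.3, libraries labelled TopBP1 cKO against WT, and P values were adjusted (Benjamini–Hochberg) over the 12393 genes in the test. The SE was the log2 fold change divided by the square root of F. The biological coefficient of variation was 15.2%. No pair of libraries was a duplicate (lowest chi-square over its degrees of freedom, 11.9). CPM use TMM library sizes. The fit was tested on simulated data. Alternatives used DESeq2 1.42.0, limma 3.58.1, other normalizations and filters, the most abundant transcript, a replicate block and leaving out each library. Reads are not independent molecules, so intervals of shares cover counting error only.

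Members and lists were chosen with earlier results of these data known. Named members (43) were the catalytic core subunits (14), members of isoform families (17), the 3 most counted of each complex, the 5 with the smallest P in each direction, any called at FDR < 0.05 and those not tested. The values of 1 of them are not reported here, although counts and medians over members include it. Other genes are named where a list is described. Lengths and shared sequence came from GENCODE vM21 (GRCm38) and promoters from RefSeq (GRCm38.p6).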

Additional observations from a re-analysis of the deposited data

How the results depend on the processing

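No member was called at FDR < 0.05 under any alternative that kept all 4 libraries. Leaving out 1 library gave 0 to 1 members higher and 0 to 5 lower, the latter without cKO-labelled replicate 1. Members at an unadjusted P below 0.05 numbered 1, 0 on the most abundant transcript of each gene and 0 to 11 with a library left out. Genes called in all numbered 13, 137 by the DESeq2 Wald test, 234 by the edgeR likelihood ratio test, 0 on the most abundant transcript and 1 to 2628 with a library left out, the last without replicate 1. A group left with 1 library was assumed to vary like the other.

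Same-numbered libraries did not deviate together (correlation −0.0147). With 2 libraries per group, of which cKO-labelled replicate 2 stood apart, this cannot decide whether same-numbered libraries were paired. The labels do not say so either. A replicate block gave 504 genes called and 2 members at an unadjusted P below 0.05.

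With a library left out, the median log2 fold change ran from −0.013 to 0.091 for all members tested, from −0.021 to 0.091 for complex I, from −6.1e-05 to 0.13 for complex II, from 0.041 to 0.094 for complex III, from −0.013 to 0.087 for complex V, from −0.067 to 0.79 for mtDNA-encoded genes and from −0.37 to −0.0026 for ribosomal protein genes. In each of these, the ends came from leaving out 1 of the cKO-labelled libraries. For complex IV (0.012 with all libraries) the median ran from −0.061 without WT replicate 1 to 0.066 without WT replicate 2, and was −0.0033 on the most abundant transcript of each gene. The median level per length was 66.3 CPM per kilobase with the longest transcript of each gene, against 75.4.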
